A study of Mus musculus with 10 samples.

Results

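The Toll-like receptor genes of mouse skin were followed in animals whose keratinocytes overexpress the serine protease Klk6, and in their controls. The members, 10 genes, were taken by gene symbol from the deposited tables, Tlr1, Tlr2, Tlr3, Tlr4, Tlr5, Tlr6, Tlr7, Tlr8, Tlr9 and Tlr13, out of 20611 genes listed. Of these receptors 5 have their protein at the cell surface and 5 in endosomes. All 10 passed the filter on low counts. Klk6+ mice carried 2 transgenes, Tetos-Klk6, which encodes mouse Klk6 with a Myc/His tag, and K5-tTA, a tetracycline transactivator driven by the bovine keratin 5 promoter. This pair makes Klk6 when doxycycline is absent, in epidermal keratinocytes and in some other stratified squamous epithelia. WT controls were littermates with no transgene or with 1 of the transgenes, which alone is not expressed, and both lines had been backcrossed to C57BL/6. The breeding that gave Klk6+ mice was done on doxycycline, since crosses without it had yielded no such pups. The labels give the return to doxycycline chow at 10 to 11 weeks of age and the collection of tissue at 14 to 16 weeks. Each genotype had 5 mice, 3 males (mice 1 to 3) and 2 females (mice 4 and 5), with 1 library of polyadenylated RNA from whole skin per mouse.

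Toll-like receptors bind microbial molecules, and some molecules released from damaged tissue, through an ectodomain of leucine-rich repeats, and signal through an intracellular TIR domain. Tlr1, Tlr2, Tlr4, Tlr5 and Tlr6 act mainly at the cell surface, where they read lipoproteins, lipopolysaccharide and flagellin. Tlr3, Tlr7, Tlr8, Tlr9 and Tlr13 act in endosomes and read nucleic acids. The adaptor Myd88 serves all of them except Tlr3, which signals through Ticam1 (TRIF), and Tlr4 uses both. In skin the receptors are found on macrophages, dendritic cells, mast cells and neutrophils, and several, Tlr2, Tlr3 and Tlr5 among them, on keratinocytes too.

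Total counts per library ranged from 26521019 to 39796511 in Klk6+ and from 32798416 to 41970272 in WT. Klk6 itself stood at 10291 to 14770 CPM (counts per 1e6 of scaled library size) in Klk6+ and at 12.7 to 26.5 CPM in WT, so the Klk6 level fitted the genotype label in every library, although the labels place a return to doxycycline before collection. Keratinocyte markers summed to 18812 to 28311 CPM in Klk6+ and 4657 to 13686 CPM in WT, so markers of epidermis were abundant in both, and skeletal muscle markers to 3000 to 5852 CPM in Klk6+ and 38969 to 55119 CPM in WT. With edgeR's quasi-likelihood test on genotype, with sex as covariate, 72.8% of the 14861 genes tested had a Benjamini-Hochberg adjusted p below 0.05. A call in this comparison is therefore common.

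Of the 10 receptors, 6 were called lower in Klk6+ and 0 higher, where 35.1% of all genes tested were lower and 37.7% higher. At an unadjusted p below 0.05 the counts were also 6 and 0. DESeq2 called 6 lower and 0 higher, and limma-voom 7 and 0. The fold change was negative for 10 of 10 members, with a median log2 fold change of -0.88, against 0.040 over all genes tested. Among endosomal receptors 4 of 5 fell (Tlr3, Tlr7, Tlr8 and Tlr9) and the median was -1.80. Among surface receptors 2 of 5 fell (Tlr4 and Tlr5) and the median was -0.87. In FPKM, 4 of 10 members (Tlr3, Tlr5, Tlr7 and Tlr9) were lower in every Klk6+ mouse than in every WT mouse, where 26% of all genes tested were. In whole skin, fewer cells that make a transcript and less of it per cell cannot be told apart.

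**Figure D1:**
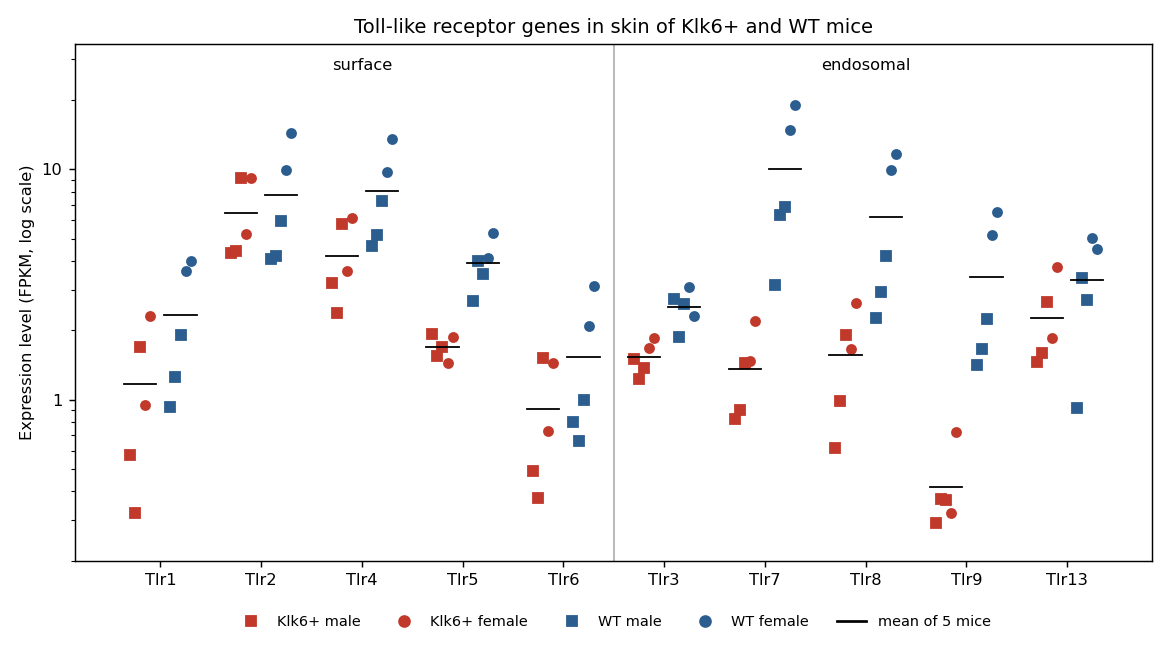
Expression level of the 10 receptor genes in each mouse, in FPKM on a log scale, with surface receptors on the left and endosomal receptors on the right. Red symbols are Klk6+ mice, blue symbols are WT mice, squares are males, circles are females and bars are means of 5 mice. Tlr7 and Tlr9 show no overlap between genotypes, whereas the Tlr2 values of Klk6+ (4.33 to 9.17) lie within those of WT (4.09 to 14.3).

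Tlr7 and Tlr9 had the largest fold changes of the 10 members. Tlr7, a receptor for single-stranded RNA and for guanosine, lies on the X chromosome (GRCm38, chrX:167304929-167330558, minus strand). Its FPKM, the read number scaled to transcript length and library size, was 0.826, 0.900, 1.44, 1.47 and 2.18 in Klk6+ mice 1 to 5, against 3.14, 6.31, 6.88, 14.8 and 19.0 in WT mice 1 to 5. Every Klk6+ mouse was below every WT mouse, and the female WT mice stood far above the male ones. The log2 fold change was -2.72 ± 0.30 (SE; adjusted p = 1.98e-05), which leaves 15.1% of the WT level.

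Tlr9, the receptor for unmethylated CpG DNA, is a gene of 2 exons at chr9:106222598-106226883 on the plus strand. It had 0.293, 0.371, 0.367, 0.323 and 0.726 FPKM in Klk6+ mice 1 to 5, against 1.41, 1.66, 2.24, 5.16 and 6.55 FPKM in WT mice 1 to 5. Again the genotypes did not overlap, and mouse Klk6+ 5 was the highest of its group. These levels rest on 38 to 72 reads per library in Klk6+ and on 228 to 834 in WT. Its log2 fold change of -2.83 ± 0.31 (adjusted p = 2.03e-05) corresponds to 14.1% of the WT level, the lowest share among the 10 members.

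Tlr8, the neighbour of Tlr7 on the X chromosome (chrX:167242696-167264329, minus strand), belongs to the same receptor subfamily as Tlr7 and Tlr9. Levels of 0.614, 0.987, 1.90, 1.66 and 2.62 FPKM were found in Klk6+ mice 1 to 5, against 2.27, 2.92, 4.20, 9.90 and 11.7 FPKM in WT mice 1 to 5. The highest Klk6+ mouse lay above the lowest WT mouse, so the groups overlapped at their edge. Its log2 fold change was -1.80 ± 0.34 (adjusted p = 0.000827). In exact two-sided permutation tests of the FPKM over every assignment of the mice to 2 groups of 5, p was 0.00794, the smallest these tests can give, for Tlr7 and Tlr9 (exact permutation), and 0.0159 for Tlr8 (exact permutation).

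The sequence just before the transcript start of 2 of these falling genes, Tlr9 and Tlr8, is shown next to that of Tlr2, whose change did not pass the test. The genes to show were chosen after their values were seen. Sequences are from RefSeq (GRCm38.p6), written 5′ to 3′ on the strand of the gene, at chr9:106222348-106222597 on the plus strand for Tlr9, chrX:167264330-167264579 on the minus strand for Tlr8 and chr3:83841768-83841858 on the minus strand for Tlr2. For Tlr2, 91 bases are shown, those outside its annotated GENCODE transcript. Capitals mark matches to the motifs named after the sequences.
Tlr9: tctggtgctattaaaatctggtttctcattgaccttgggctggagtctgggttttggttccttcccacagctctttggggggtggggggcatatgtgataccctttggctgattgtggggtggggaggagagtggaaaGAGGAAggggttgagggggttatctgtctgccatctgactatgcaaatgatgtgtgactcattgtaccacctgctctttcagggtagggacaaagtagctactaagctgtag
Tlr8: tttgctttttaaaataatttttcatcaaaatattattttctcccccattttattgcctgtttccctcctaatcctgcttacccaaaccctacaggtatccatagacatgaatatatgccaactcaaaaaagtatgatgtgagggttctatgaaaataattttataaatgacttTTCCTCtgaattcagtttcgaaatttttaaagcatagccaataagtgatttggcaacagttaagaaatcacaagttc
Tlr2: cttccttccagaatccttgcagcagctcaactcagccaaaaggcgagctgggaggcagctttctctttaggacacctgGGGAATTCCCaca
Each of 3 motifs was searched for on both strands in the 250 bases before each RefSeq start, and 8 of the 10 members had an entry, Tlr4 and Tlr7 being the others. The purine box GAGGAA, a core bound by Ets-family factors such as Spi1 (PU.1) of myeloid cells, was present in 23.25% of 32851 windows of this length. Among members it matched in Tlr9 (first base at -112 from the start), in Tlr8 at -77 as its reverse complement TTCCTC, in Tlr13 and in 1 window of Tlr1. The NF-kB-type motif (GGG, any 2 bases, TT, any base, CC) was present in 4.109% of windows, and matched in Tlr2 at -172, counted from a RefSeq start inside the GENCODE transcript, and in Tlr3 at -211. The interferon response element core (GAAA, any 2 bases, GAAA) was present in 2.977% of windows and matched in Tlr6 with 2 overlapping copies. The matching windows of Tlr6 and Tlr3 lie wholly inside the annotated GENCODE genes, downstream of their outermost start. Tlr5, also called lower in Klk6+, matched none of the 3 motifs. Tlr13 and Tlr1, with the purine box, were not called, whereas Tlr3, with the NF-kB-type motif, was called lower. Among the 8 members with an entry, the motifs thus did not divide the called ones from the others. Tlr4 and Tlr7, both called lower, could not be searched. So few genes cannot decide whether a motif goes with the fall. These matches are of letters alone, and whether a factor binds there was not measured.

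Tlr3, the receptor for double-stranded RNA (chr8:45395665-45411080, minus strand), fell too, with a small spread between mice. FPKM were 1.5, 1.23, 1.37, 1.68 and 1.85 in Klk6+ mice 1 to 5, against 2.74, 1.88, 2.61, 3.07 and 2.30 in WT mice 1 to 5. The groups did not overlap, although the highest Klk6+ mouse and the lowest WT mouse nearly met. The log2 fold change was -0.74 ± 0.14 (adjusted p = 0.000625). With females alone in the fit it was -0.67 with an adjusted p of 0.0594. Exons of the antisense gene Gm45542 cover 381 bases (7.32%) of Tlr3's exons, and with a kit that does not mark strand their reads cannot be told apart.

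Tlr13 (chrX:106143204-106160493, plus strand), which in the mouse recognises bacterial ribosomal RNA, was the 1 endosomal receptor that did not pass the test. It had 1.46, 1.59, 2.66, 1.85 and 3.75 FPKM in Klk6+ mice 1 to 5, against 0.916, 3.39, 2.71, 5.03 and 4.50 FPKM in WT mice 1 to 5. Mouse WT 1 was lower than every Klk6+ mouse, while the other WT mice lay mostly above them. The log2 fold change was -0.50 ± 0.36 (-1.22 to 0.22 at 2 SE to either side; adjusted p = 0.227), and without mouse WT 1 it was -0.75 with an adjusted p of 0.0290.

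At the cell surface, Tlr5 and Tlr4 fell. Tlr5, the flagellin receptor (chr1:182954788-182976044, plus strand), had 1.92, 1.54, 1.69, 1.44 and 1.87 FPKM in Klk6+ mice 1 to 5, against 2.67, 4.0, 3.53, 4.12 and 5.27 FPKM in WT mice 1 to 5. It was the surface receptor with no overlap between genotypes and with the smallest spread within Klk6+ (1.69 ± 0.207 FPKM, SD, n = 5). Its log2 fold change was -1.21 ± 0.18 (adjusted p = 0.000171), or 43.4% of the WT level.

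Tlr4, the signalling receptor for lipopolysaccharide (chr4:66827584-66930284, plus strand), had 3.20, 2.37, 5.76, 3.60 and 6.12 FPKM in Klk6+ mice 1 to 5, against 4.64, 5.17, 7.28, 9.75 and 13.5 FPKM in WT mice 1 to 5. Mice Klk6+ 3 and Klk6+ 5 reached into the WT range. Its log2 fold change was -0.87 ± 0.28 (adjusted p = 0.0174). In the permutation test of FPKM, p was 0.0476 for Tlr4 and 0.00794 for Tlr3 and Tlr5 (exact permutation). The edgeR call of Tlr4 was lost without mouse WT 3 (-0.80, adjusted p = 0.0564), without mouse WT 5 (-0.73, adjusted p = 0.0523) and with males alone (-0.64, adjusted p = 0.134).

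Tlr2 (chr3:83836272-83841767, minus strand), which pairs with Tlr1 or Tlr6 to recognise lipopeptides, was the member with the smallest difference. It had 4.33, 4.40, 9.15, 5.22 and 9.17 FPKM in Klk6+ mice 1 to 5, against 4.09, 4.22, 5.94, 9.97 and 14.3 FPKM in WT mice 1 to 5. The Klk6+ values all fell inside the WT range, and both genotypes held low and high mice. The log2 fold change was -0.12 ± 0.31 (-0.74 to 0.51 at 2 SE to either side; adjusted p = 0.751). Its sign turned without mouse WT 5 (0.065), without mouse Klk6+ 4 (0.047) and in males alone (0.28), so no direction can be given.

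The partners of Tlr2 lie side by side on chromosome 5, Tlr1 at chr5:64924679-64933563 and Tlr6 at chr5:64952031-64960097, both on the minus strand. Tlr1 had 0.573, 0.321, 1.69, 0.949 and 2.31 FPKM in Klk6+ mice 1 to 5, against 0.930, 1.26, 1.90, 3.61 and 3.99 FPKM in WT mice 1 to 5. Tlr6 had 0.491, 0.373, 1.52, 0.730 and 1.44 FPKM in Klk6+ mice 1 to 5, against 0.800, 0.663, 0.998, 2.09 and 3.12 FPKM in WT mice 1 to 5. Both genes were highest in the 2 WT females, and mice Klk6+ 3 and Klk6+ 5 were the high ones of their group. The log2 fold changes were -0.90 ± 0.44 for Tlr1 (adjusted p = 0.0879) and -0.55 ± 0.43 for Tlr6 (adjusted p = 0.276), neither past the threshold. Without mouse Klk6+ 3 both passed, Tlr1 at -1.45 (adjusted p = 0.00432) and Tlr6 at -1.12 (adjusted p = 0.00526). The transcripts of Tlr1 and Tlr6 have 454 stretches of 50 bases in common, 13.6% of those of Tlr1 and 12.3% of those of Tlr6, so the split of reads between them is uncertain.

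Outside the 10 members, Tlr11, which in the mouse recognises profilin of protozoa, stood at 0.136 ± 0.105 CPM in Klk6+ and 1.65 ± 0.642 CPM in WT (SD, n = 5 each; log2 fold change -3.56 ± 0.56, adjusted p = 0.000219). It rested on 1 to 9 reads per Klk6+ library. Tlr12 had 1 to 14 reads per library and was not tested.

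**Figure D2:**
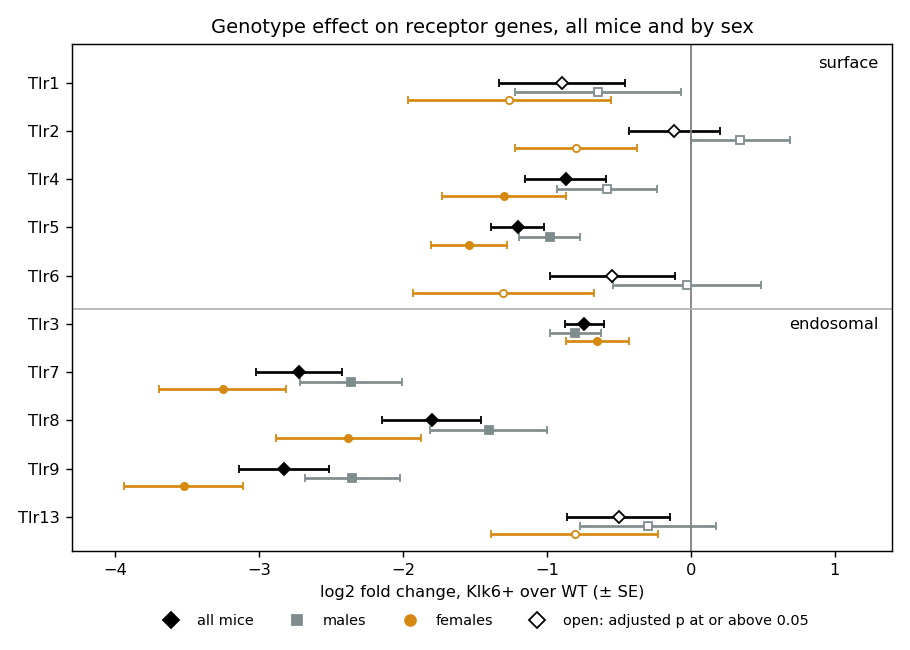
Log2 fold change of Klk6+ over WT for each receptor, with its standard error, from edgeR. Black diamonds are all 10 mice with sex as covariate, grey squares are males, orange circles are females and open symbols have an adjusted p of at least 0.05. Tlr7 and Tlr9 lie at -2.72 and -2.83 over all mice, and Tlr2 at -0.12.

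Levels can be ranked between receptors in FPKM, which accounts for transcript length. In Klk6+ skin the order was Tlr2 (6.45 FPKM), Tlr4 (4.21), Tlr13 (2.26), Tlr5 (1.69), Tlr8 (1.56), Tlr3 (1.52), Tlr7 (1.36), Tlr1 (1.17), Tlr6 (0.911) and Tlr9 (0.416). Tlr2 was above Tlr4, Tlr4 above Tlr13 and Tlr6 above Tlr9 in 5 of 5 Klk6+ mice, whereas Tlr5, Tlr8, Tlr3 and Tlr7 changed places from mouse to mouse. In WT skin the order was Tlr7 (10.0 FPKM), Tlr4 (8.06), Tlr2 (7.71), Tlr8 (6.20), Tlr5 (3.92), Tlr9 (3.40), Tlr13 (3.31), Tlr3 (2.52), Tlr1 (2.34) and Tlr6 (1.53). Neighbours in the WT order mostly differed by less than the spread between mice. Tlr7 was above Tlr4 in 3 of 5 WT mice, while Tlr2 was above Tlr8, and Tlr1 above Tlr6, in 5 of 5.

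Summed over the family, the level was 21.6 ± 7.89 FPKM in Klk6+ and 49.0 ± 25.8 FPKM in WT (SD, n = 5 each), with overlapping mice. The make-up of that sum separated the genotypes. Surface receptors supplied 69.2%, 63.9%, 71.9%, 63.1% and 65.3% of the summed FPKM in Klk6+ mice 1 to 5, against 55.7%, 48.7%, 51.3%, 43.7% and 47.7% in WT mice 1 to 5. The lowest Klk6+ mouse was thus above the highest WT mouse, and the means differed by 17.3 percentage points (66.7% ± 3.75 in Klk6+, 49.4% ± 4.43 in WT). By CPM, which does not account for length, the surface share was 62.1% ± 3.94 in Klk6+ and 45.8% ± 4.25 in WT, again with no overlap. The endosomal receptors were not alike, so the share does not stand for each of them. Tlr7, Tlr8 and Tlr9 had log2 fold changes of -2.72, -1.80 and -2.83. Those of the endosomal Tlr3 (-0.74) and Tlr13 (-0.50) lay within the range of the surface receptors (-1.21 to -0.12). The surface share without Tlr7, Tlr8 and Tlr9 was not taken. No test is given for this share, because the members and their grouping were chosen with earlier results known.

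Shares of single receptors were taken only for the members of largest change (Tlr9 and Tlr7) and of smallest change (Tlr2). They do not stand for the other members. Tlr2 made up 29.8% ± 2.33 of the summed FPKM in Klk6+ and 15.6% ± 1.62 in WT. Tlr7 made up 6.33% ± 1.04 in Klk6+ and 19.2% ± 3.75 in WT. Tlr9 made up 1.97% ± 0.502 in Klk6+ and 6.50% ± 1.13 in WT. None of these 3 shares overlapped between genotypes, and a share of a sum moves with every other member of it.

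**Figure D3:**
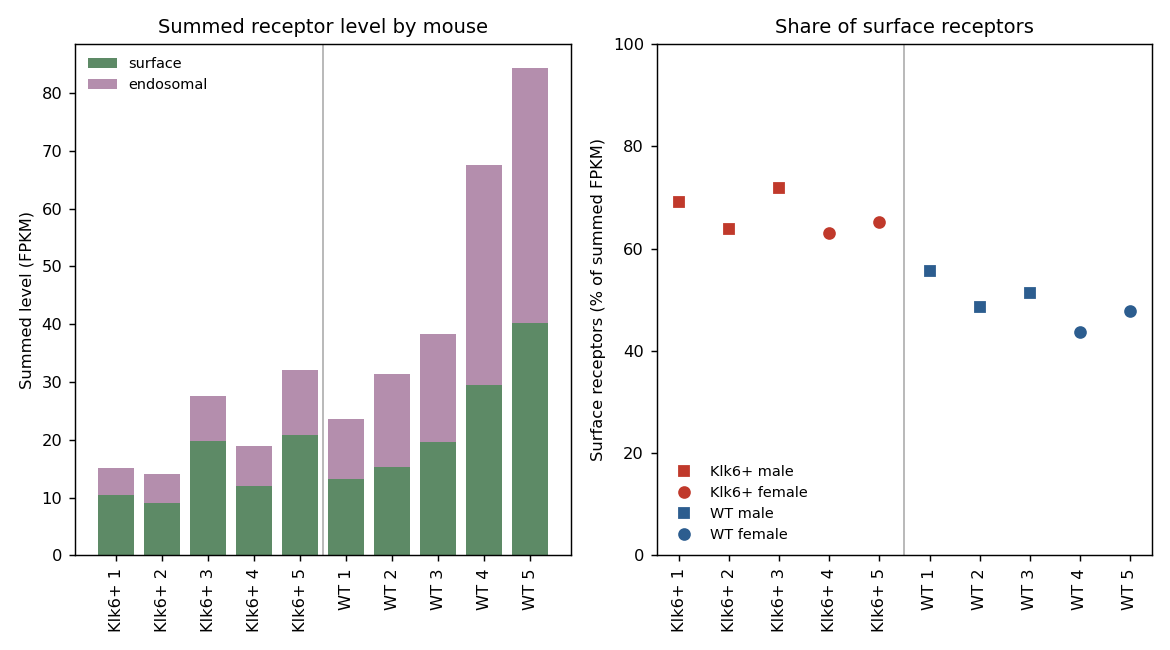
Left, summed FPKM of the 5 surface (green) and 5 endosomal (purple) receptors in each mouse, as stacked bars. Right, surface receptors as a percent of the summed FPKM in each mouse, red for Klk6+, blue for WT, squares for males and circles for females. The Klk6+ mice lie at 63.1% to 71.9% and the WT mice at 43.7% to 55.7%.

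The genotype effect was also taken within each sex. In males 5 receptors were called lower (Tlr3, Tlr5, Tlr7, Tlr8 and Tlr9), where 31% of all genes tested were lower. In females 6 were called lower, the same 5 with Tlr4, where 28.4% of all genes tested were lower. Tlr9 fell by 3.53 ± 0.41 on the log2 scale in females (adjusted p = 0.000139) and by 2.35 ± 0.33 in males (adjusted p = 0.000258). Tlr7 fell by 3.25 ± 0.44 in females (adjusted p = 0.000282) and by 2.36 ± 0.35 in males (adjusted p = 0.000376). The fold changes in females were below those in males for every member except Tlr3. The test of that difference itself, the genotype-by-sex interaction, called 0 of 10 members and 0% of all genes by edgeR, and 0 members by limma-voom. At an unadjusted p below 0.05 it picked 1 of 10 members and 1410 of the 14861 genes tested, which are close shares. That member was Tlr9, with a log2 difference of -1.17 ± 0.50, females minus males.

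Within the WT mice, Tlr9 and Tlr7 were called higher in females than in males. Tlr9 was 1.70 ± 0.33 higher on the log2 scale in WT females than in WT males (adjusted p = 0.0250) and Tlr7 1.60 ± 0.36 higher (adjusted p = 0.0388), and Tlr8, at 1.77 ± 0.43, had an adjusted p of 0.0518. In this contrast, 3.81% of all genes tested were called higher in females. In CPM, 8 of 10 members were higher in both WT females than in all 3 WT males, which held for 19.2% of all genes tested, and Tlr3 and Tlr5 were the exceptions. Tissue markers also set the WT sexes apart. Fibroblast markers summed to 11485 to 11872 CPM in WT females and 21841 to 40752 CPM in WT males. Keratinocyte markers summed to 4657 to 7231 CPM in WT females and 9294 to 13686 CPM in WT males. Other lists were higher in WT females. Macrophage and monocyte markers summed to 7071 to 8651 CPM in WT females and 1717 to 3043 CPM in WT males. In the same order, neutrophil markers summed to 207 to 261 and 63.8 to 133 CPM, and mast cell markers to 259 to 279 and 175 to 197 CPM. Plasmacytoid dendritic cell markers summed to 6.64 to 7.40 and 5.20 to 6.34 CPM. The part of these markers in the sex difference was not tested. Among Klk6+ mice 1 of 10 members was higher in CPM in both females than in all males, where 8.44% of all genes were. No member was called between the sexes of Klk6+ mice by edgeR, where 0.0336% of all genes were (at an unadjusted p below 0.05 also 0 members). This contrast was added after the values were seen.

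Macrophage and monocyte markers moved with these results. The 12 markers summed to 559, 653, 1124, 861 and 1778 CPM in Klk6+ mice 1 to 5, against 1717, 2240, 3043, 7071 and 8651 CPM in WT mice 1 to 5. All 12 were called lower in Klk6+ (median log2 fold change -2.04), where 35.1% of all genes tested were, and none was at 0 in the series. Mice Klk6+ 3 and Klk6+ 5 had the most marker RNA of their group, and so had the 2 WT females. Csf1r, the receptor that macrophages need for survival, averaged 80.6 ± 30.2 CPM in Klk6+ and 521 ± 350 CPM in WT. The part of macrophage number in the receptor differences was not tested.

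Other cell types that carry Toll-like receptors moved as well. Neutrophil markers summed to 6028 to 10117 CPM in Klk6+ and 63.8 to 261 CPM in WT, with 8 of 9 tested markers higher, most of the sum coming from S100a8 and S100a9, which keratinocytes can also make. Dendritic and Langerhans cell markers summed to 18.4 to 24.6 CPM in Klk6+ and 67.5 to 95.1 CPM in WT, with 7 of 7 lower. Plasmacytoid dendritic cell markers summed to 2.75 to 4.79 CPM in Klk6+ and 5.20 to 7.40 CPM in WT, with 1 of 2 tested markers lower (Siglech) and 1 higher (Ccr9). B cell markers summed to 0.63 to 2.42 CPM in Klk6+ and 1.26 to 4.16 CPM in WT, with 1 of 2 tested lower and 1 higher. Mast cell markers were higher for 5 of 6, and T and NK cell markers lower for 4 of 4 tested. Markers of fibroblasts (0 higher and 6 lower of 6), endothelium (0 and 5 of 5) and adipocytes (0 and 5 of 5) were lower too. Over all genes tested, 35.1% were lower and 37.7% higher. The part of these cell types in the receptor differences was not tested.

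Set against the macrophage marker sum of the same mouse, the receptors behaved differently from one another. Tlr7 was 0.590% ± 0.0671 of the marker CPM in Klk6+ and 0.948% ± 0.176 in WT, and Tlr9 was 0.167% ± 0.0420 in Klk6+ and 0.288% ± 0.0117 in WT. These were the 2 of 10 members that were lower in every Klk6+ mouse than in every WT mouse on this scale, where 0.74% of all genes tested were. The 12 markers themselves fell unequally, with log2 fold changes from -1.33 to -2.66. The largest fall, -2.66, was that of Adgre1, close to those of Tlr7 (-2.72) and Tlr9 (-2.83). Whether these 2 receptors fell beyond macrophage content was not tested. Tlr8 was 0.375% to 0.634% of the marker CPM in Klk6+ and 0.444% to 0.479% in WT, with overlap. Among WT mice the highest Tlr8 ratio was 1.08 times the lowest, whereas the highest Tlr8 CPM was 5.29 times the lowest. Within WT, Tlr8 and the marker sum thus moved together from mouse to mouse. The same 2 values were 1.11 and 4.76 for Tlr9, but 5.85 and 1.55 for Tlr3 and 3.24 and 2.01 for Tlr5.

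On the same scale Tlr2 was 2.09% ± 0.418 of the marker CPM in Klk6+ and 0.574% ± 0.110 in WT. Tlr2, Tlr4, Tlr6 and Tlr13 were higher in every Klk6+ mouse than in every WT mouse. That is 4 of 10 members, close to the 44.2% of all genes tested that did the same, and the marker sum itself was lower in Klk6+. This ratio was added after the values were seen and has no test, and with Csf1r alone as the base the count of lower members was 1 (Tlr9).

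**Figure D4:**
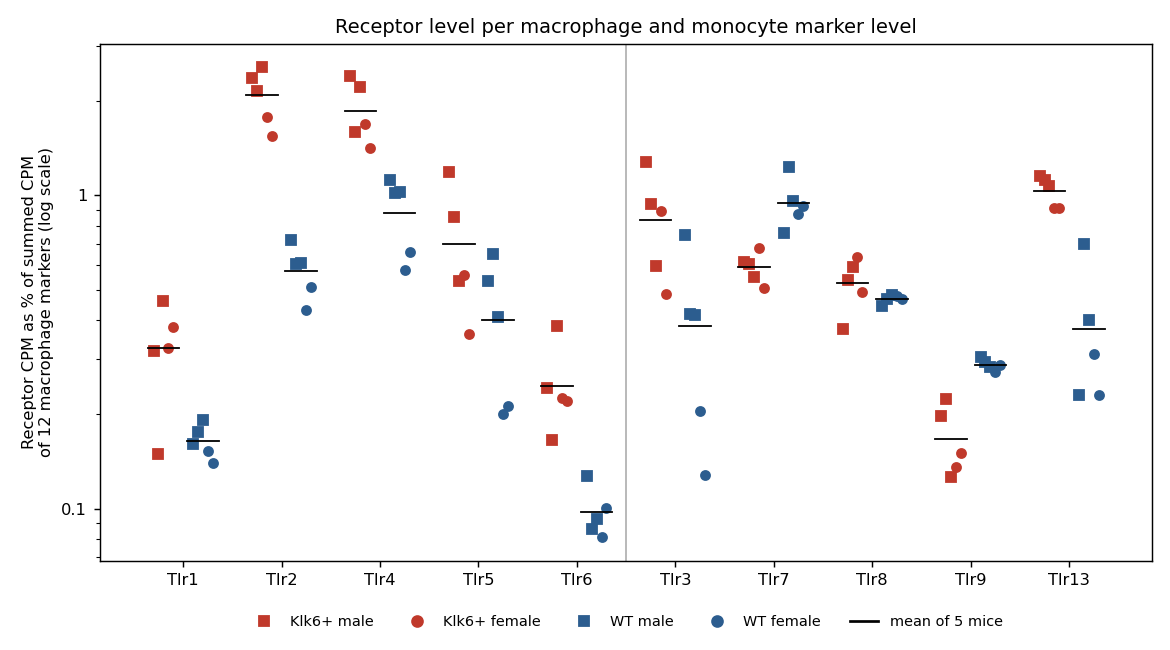
Receptor CPM as a percent of the summed CPM of 12 macrophage and monocyte markers in the same mouse, on a log scale, with surface receptors on the left and endosomal receptors on the right. Red symbols are Klk6+ mice, blue symbols are WT mice, squares are males, circles are females and bars are means of 5 mice. Tlr9 averages 0.167% in Klk6+ and 0.288% in WT, while Tlr2 averages 2.09% in Klk6+ and 0.574% in WT.

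The genes most like Tlr9 and Tlr7 in pattern over the 10 mice were sought by the root mean square difference of centred log2 CPM among 14860 genes. For Tlr9 they were Adgre1, which encodes the macrophage surface protein F4/80 (difference 0.144), Mpeg1, which encodes the pore-forming perforin-2 of phagocytes (0.151), and Itga4, which encodes an integrin alpha chain of leukocytes (0.179). For Tlr7 they were Dok2, an adaptor of blood cells (0.152), Adgre1 (0.199) and Mpeg1 (0.228). Tlr7 ranked 20 in the list for Tlr9, Tlr9 ranked 10 in that for Tlr7, and Tlr8 ranked 302 and 117 in the lists for Tlr9 and Tlr7. Tlr2 ranked 4523 for Tlr9 and 4233 for Tlr7. All of these values share the same libraries and the same difference between genotypes.

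Co-receptors and ligand-binding partners of surface receptors, listed together with the Tlr4-related pair Cd180 and Ly86, went both ways. Of 6 tested, 4 fell and 1 rose (median log2 fold change -1.03), where 35.1% of all genes tested were lower and 37.7% higher. Cd14, which transfers lipopolysaccharide to Tlr4, rose to 127 ± 96.2 CPM in Klk6+, against 40.0 ± 16.7 CPM in WT (log2 fold change 1.73 ± 0.51, adjusted p = 0.0105). Ly96 (MD-2), the partner that Tlr4 needs to bind lipopolysaccharide, had 4.44 ± 0.526 CPM in Klk6+ and 4.17 ± 1.31 CPM in WT, a difference that did not pass (adjusted p = 0.554). Lbp, the lipopolysaccharide-binding protein, fell (-1.45 ± 0.28, adjusted p = 0.000882), and so did Cd36 (-0.61 ± 0.15, adjusted p = 0.00428), a co-receptor for Tlr2 and Tlr6. Cd180, a receptor related to Tlr4 that has no TIR domain, and its partner Ly86 (MD-1) showed the largest changes of the list. Cd180 had 0.764 ± 0.348 CPM in Klk6+ and 16.5 ± 11.0 CPM in WT (-4.26 ± 0.28, adjusted p = 8.85e-07), and Ly86 fell by 3.25 ± 0.27 (adjusted p = 3.46e-06).

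Of 11 genes for folding, transport and processing of endosomal receptors, 6 fell and 1 rose (median -0.65). Over all genes tested, 35.1% were lower and 37.7% higher. Taken in either direction, the 7 called of 11 were no larger a share than the 72.8% called over all genes tested. Unc93b1, the chaperone that carries endosomal receptors out of the endoplasmic reticulum, fell to 30.6 ± 8.55 CPM in Klk6+, against 183 ± 124 CPM in WT (-2.34 ± 0.27, adjusted p = 2.55e-05). Pld4, an endolysosomal exonuclease that degrades ligands of Tlr7 and Tlr9, fell by 3.10 ± 0.29 (adjusted p = 7.05e-06). Ctss, a cathepsin that can cleave Tlr7 and Tlr9 ectodomains, fell by 1.51 ± 0.27 (adjusted p = 0.000573), and Cnpy3, a cofactor of receptor folding, by 0.65 ± 0.10 (adjusted p = 0.000149). Hsp90b1 (gp96), the general folding chaperone of these receptors, rose by 0.71 ± 0.14 (adjusted p = 0.00119).

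The 5 adaptors with TIR domains all passed the test, 2 higher and 3 lower, where 72.8% of all genes tested passed, 37.7% higher and 35.1% lower. Myd88 rose to 93.6 ± 8.19 CPM in Klk6+, against 35.4 ± 5.80 CPM in WT (1.42 ± 0.10, adjusted p = 1.13e-06), with no overlap between mice. Ticam1 rose by 0.35 ± 0.11 (adjusted p = 0.0135). The bridging adaptors fell, Tirap by 0.61 ± 0.18 (adjusted p = 0.0101) and Ticam2, which links Tlr4 to Ticam1, by 2.49 ± 0.37 (adjusted p = 0.000149). Sarm1, which is known mainly as an enzyme of axon degeneration, fell by 1.78 ± 0.39 (adjusted p = 0.00188). Its level was low, with 38 reads over all Klk6+ libraries together and 147 over all WT libraries.

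Among 16 downstream kinases and ubiquitin ligases, 8 rose and 2 fell (median 0.33), against 37.7% higher and 35.1% lower over all genes tested. Of smallest p were Chuk, the IKK alpha kinase (0.72 ± 0.07, adjusted p = 8.08e-06), Map3k7, the TAK1 kinase (0.40 ± 0.07, adjusted p = 0.000431), and Peli1, a ubiquitin ligase of the pathway (0.70 ± 0.12, adjusted p = 0.000471). Among 9 transcription factors 3 rose and 4 fell (median 0.055), shares near those over all genes. Nfkb1 (0.80 ± 0.07, adjusted p = 4.05e-06), Rel (1.78 ± 0.24, adjusted p = 7.78e-05) and Irf3 (0.79 ± 0.09, adjusted p = 2.63e-05) rose. Irf7, which drives type I interferon after Tlr7 and Tlr9 signals, fell by 3.06 ± 0.39 (adjusted p = 5.49e-05), and Irf5, a factor that Myd88 engages, by 1.33 ± 0.19 (adjusted p = 9.75e-05). Of 9 inhibitors 3 rose and 1 fell (median 0.27), a share of rising genes no higher than the 37.7% over all genes. Among them were Socs1, a suppressor of cytokine signalling, up by 1.93 ± 0.28 (adjusted p = 0.000118) and Cyld, a deubiquitinase, down by 0.54 ± 0.07 (adjusted p = 4.94e-05).

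Among the pathway lists, tissue-derived ligands and genes that receptor signalling can induce had the highest medians. Of 10 genes for proteins or precursors reported as ligands of Tlr2 or Tlr4, or as carriers of nucleic acid to endosomal receptors, 7 rose and 2 fell (median 2.31), where 37.7% of all genes tested were higher and 35.1% lower. S100a8 and S100a9, the 2 subunits of calprotectin, rose by 8.68 ± 0.23 and 8.76 ± 0.24 (adjusted p = 8.57e-09 and 8.73e-09). Tnc, the matrix protein tenascin C, rose by 4.38 ± 0.36 (adjusted p = 2.86e-06), and Hspd1, a mitochondrial chaperone, by 1.29 ± 0.10 (adjusted p = 2.50e-06). Saa3, an acute-phase serum amyloid, rose by 8.17 ± 0.67 (adjusted p = 3.07e-06). Both genes that fell, picked for naming once their values were known, encode the matrix proteoglycans decorin (Dcn, -1.61 ± 0.15, adjusted p = 6.11e-06) and biglycan (Bgn, -0.42 ± 0.14, adjusted p = 0.0201).

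Of the 11 tested among 12 cytokine and response genes, 8 rose and 3 fell (median 3.62), against the same shares over all genes. Il1b had 151 ± 89.1 CPM in Klk6+ and 2.06 ± 0.949 CPM in WT (6.23 ± 0.52, adjusted p = 3.31e-06). The neutrophil chemokines Cxcl1 (6.39 ± 0.46, adjusted p = 1.5e-06) and Cxcl2 (7.74 ± 0.54, adjusted p = 1.26e-06) rose, as did Nfkbiz, a nuclear cofactor of NF-kB (3.62 ± 0.18, adjusted p = 3.00e-07), and Ptgs2, the inducible cyclooxygenase (3.91 ± 0.35, adjusted p = 4.89e-06). The 3 that fell were Il10, Cxcl10 and Ccl5, named after their values were seen. Cxcl10, a chemokine induced by interferon, stood at 0.859 ± 0.429 CPM in Klk6+ and 4.01 ± 0.874 CPM in WT (-2.21 ± 0.34, adjusted p = 0.000211). Many other receptors induce these genes too. Of the keratinocyte markers 5 of 6 were called higher and 1 lower, and of the neutrophil markers 8 of 9 tested were higher and 1 lower. The part of Toll-like receptors, or of these cell types, in the cytokine differences was not tested.

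**Figure D5:**
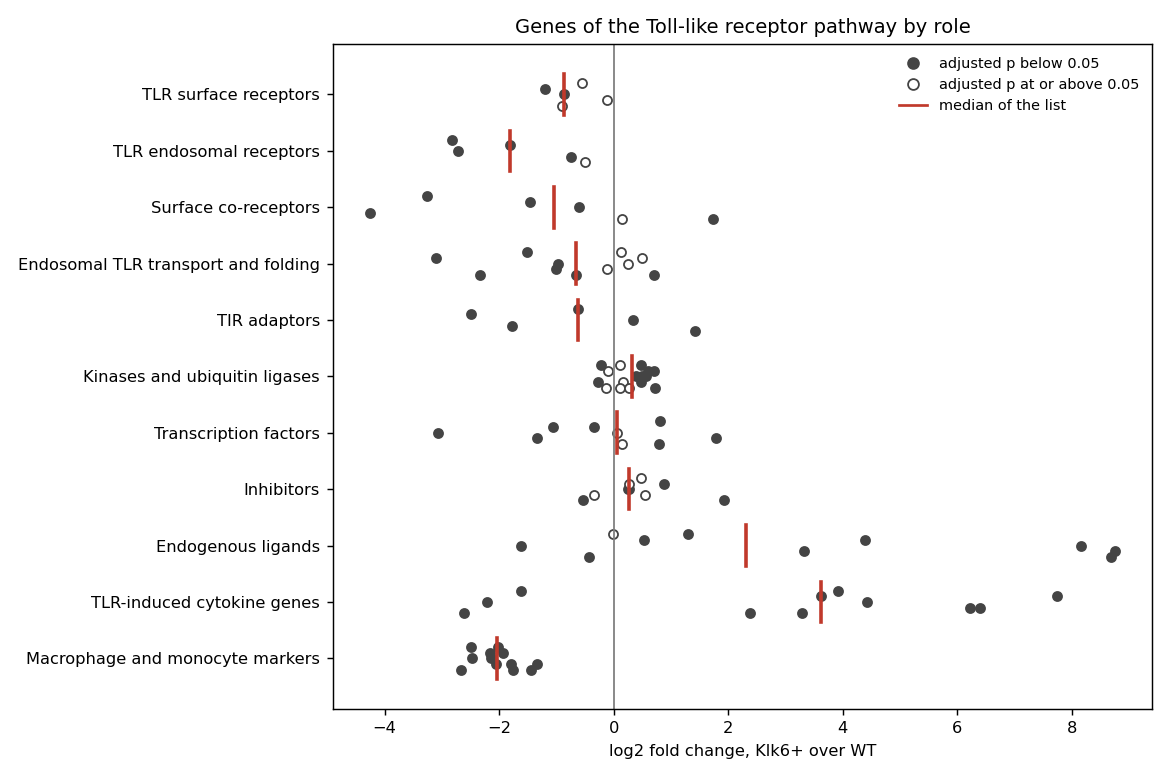
Log2 fold change of Klk6+ over WT for each tested gene of the Toll-like receptor pathway, grouped by role, with macrophage and monocyte markers in the bottom row. Filled points have an adjusted p below 0.05, open points do not, and red bars are list medians. The endosomal receptors have a median of -1.80 and the cytokine genes one of 3.62.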

How the data were processed

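Skin RNA of 10 mice, 5 Klk6+ and 5 WT, was sequenced as 50-cycle single-end reads of a polyA library that does not mark strand, per the labels' protocols. Per the file headers, the authors deposited 1 table per mouse, in which each gene symbol has an FPKM and a count of reads. The counts are whole numbers with no normalization. The FPKM were scaled by the authors to a total not stated in the sources used here. The submitters' processing notes list Cufflinks 2.2.1, HTSeq, TopHat2 and SAMtools with GRCm38 and mm10 as genome builds. The tool behind each value, the annotation and the handling of reads with several matches were not found in these sources.

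The whole table of counts was fitted in edgeR 4.0.16 (R 4.3.3): filterByExpr on genotype (minimum count 10), TMM scaling, and the quasi-likelihood test of genotype with sex as covariate, with Benjamini-Hochberg adjustment over 14861 genes. The standard error is the log2 fold change divided by the square root of F, and the common biological coefficient of variation was 0.244. Effects within a sex, between the sexes and their interaction came from a model of 4 genotype-by-sex means. Exact permutation tests (two-sided) compared the FPKM of single receptors. Alternatives were DESeq2 1.42.0, limma 3.58.1 (voom, and trend on log2 FPKM plus 0.1 or 1), other scalings and filters, and leaving out mice. The fits were tested on simulated data. Gene positions and shared stretches are from GENCODE M21 on GRCm38.

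Replicate numbers were given in accession order within a genotype and pair no mice. The labels name no batch, litter or body site, so any such difference between the groups cannot be told apart from genotype. The p-values set the genotype difference against the spread between mice within a genotype. No library repeated another: counts of mice of 1 genotype differed by at least 42.8 chi-square units per degree of freedom. In each library 2 to 3 genes with more than 20 counts were listed at an FPKM of 0, none of them a receptor.

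The receptors and gene lists were chosen with earlier results of these data known. All 10 receptors are named, with Tlr11 and Tlr12. Of each pathway list up to 6 tested members could be named where it held no more, otherwise up to 5 of smallest p. Named outside this rule, after their values were seen, were the falling ligand genes (Dcn, Bgn), the falling cytokine genes (Il10, Cxcl10, Ccl5) and 2 plasmacytoid markers (Siglech, Ccr9). For the 2 members of largest change, the 3 genes most alike in pattern are named. The contrast of the sexes within a genotype and the ratio to macrophage markers were added after the data were seen.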

Additional observations from a re-analysis of the deposited data

Results flagged for a closer look

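Of 22 groups of receptor values examined for a mouse far from the others of its genotype, 1 was picked out, and chance alone picks about 1 in 20. Tlr9 in mouse Klk6+ 5 stood at 2.68 CPM, against 1.10 to 1.46 CPM in the other Klk6+ mice, a gap of 0.773 of the whole range of the group. The same mouse had the largest macrophage marker sum among Klk6+ mice, 1778 CPM. Whether the marker level accounts for the Tlr9 level was not tested.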

How the results depend on the processing

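Leaving out each mouse in turn gave 5 to 8 receptors lower in Klk6+ and 0 higher, 10319 to 10744 genes called in all, 4 to 7 receptors called in males and 4 to 7 in females, 4 to 6 receptors with an exact permutation p below 0.05, a surface share 15.8 to 18.8 percentage points higher in Klk6+, and per macrophage marker 4 to 5 receptors higher and 2 lower. With Csf1r alone as the base, 1 receptor was lower. Tlr2 ranged from -0.44 to 0.065 over the same omissions. It turned to a positive sign without WT replicate 5 (0.065), without Klk6+ replicate 4 (0.047) and with males only (0.28), and the cause was not tested. Tlr5, Tlr7, Tlr8 and Tlr9 passed under all 24 alternatives run, with log2 fold changes of -1.56 to -0.85, -3.27 to -2.03, -2.39 to -1.34 and -3.54 to -1.49. Tlr3 and Tlr4 each lost the call in at least 1 of them. Tlr1 passed with limma-voom (-1.14, adjusted p = 0.0219), on log2 FPKM, and without Klk6+ replicate 3 or replicates 3 and 5 (-1.81 for both left out). Tlr6 passed without the same mice. No scaling moved the median of all genes by more than 0.1. No paired analysis was possible because the replicate numbers were given in accession order and pair no mice. The low read numbers of Tlr9 in Klk6+ limit its precision.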
